A study of Ovis aries with 12 samples.

Results

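This account covers 84 genes of the sheep mitral valve leaflet whose read levels in every library taken after myocardial infarction (MI) lay on one side of every library taken before it, at both 4 and 8 weeks. The genes were selected on measured values. CPM (a gene's count divided by its library's total, times 1000000) had to average at least 1 over 12 libraries. All 9 post-MI CPM had to be above, or all below, the 3 pre-MI CPM, and the 4-week and 8-week means had to be within 1.5-fold of each other. The 37 lowest-numbered gene IDs were left out. Of 25197 gene IDs in the table, 13605 had a sufficient mean CPM and were considered. The rule kept 4 genes that were higher after infarction and 80 that were lower. These 2 directions are treated apart. Because the same CPM chose the genes, their difference between pre-MI and post-MI libraries is described here and is not tested.

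The samples were anterior mitral leaflets of 12 adult Dorset sheep, 1 library per animal. The pre-MI group held 3 animals without regurgitation. In the others a posterior infarction was made by permanently closing branches of the circumflex coronary artery, and leaflets were taken 4 weeks later (5 animals, 3 with ischemic mitral regurgitation, IMR, and 2 without) or 8 weeks later (4 animals, 2 with IMR and 2 without). Whether the pre-MI animals had any surgery is not given in the sources used here, so infarction, the operation and the time after it cannot be told apart. A leaflet is bulk tissue, in which fewer cells of a type and less RNA per cell cannot be told apart.

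The mitral leaflets close the opening between the left atrium and the left ventricle when the ventricle contracts. They consist of an endothelial cover around a layered matrix of collagen, proteoglycans and elastic fibres, kept up by valve interstitial cells. After a posterior infarction the papillary muscle below the valve can be displaced, which pulls on the leaflets and can let blood leak back, and valve interstitial cells are known to respond to altered load by remodelling their matrix.

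Neither the deposited table nor the names table used here pairs the gene IDs with symbols (0 of 25197 IDs matched). The genes are therefore described by ID, by position within the 84 and by group, without function or sequence, and the leaflet's defining markers, the matrix genes and the markers of other cell types were not analysed here. In each direction 2 genes are named by ID, those with the widest gap in CPM between the pre-MI and post-MI libraries.

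Library totals ran from 7768007 to 19175100 counts, and 15321 to 17296 genes had counts in each library. The scaling of the libraries differed beyond their totals. TMM factors, which correct a library's total for its most abundant and most changed genes, ran from 0.717 in 4-week replicate 1 without IMR to 1.19 in pre-MI replicate 4. The 10 genes with the most counts took 25.2% of the first of these libraries and 10.2% to 16.3% of each other library. The median of all 13605 genes considered shifted by -0.10 (log2 of the mean post-MI over the mean pre-MI CPM) with column totals and by 0.07 with TMM-adjusted totals.

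The direction of the genes kept also differed between the scalings, and whether that shift was the reason was not tested. With column totals, as in the rule, 4.76% of the genes kept were higher after infarction. With TMM-adjusted totals the rule kept 25 higher and 19 lower genes, so that 56.8% were higher. All 4 higher genes and 13 of the 80 lower genes were among those kept under both scalings. A shift at both time points, as the rule defines it, was therefore present under both scalings for 17 of the 84 genes.

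All 4 higher genes had mean post-MI CPM between 2.78 and 3.04 times the pre-MI mean (n = 9 and n = 3). They made up 0.0294% of the genes considered. Under TMM-adjusted totals their libraries remained apart in 4 of 4, with folds of 3.11 to 3.58. That scaling also moved the log2 median of all genes considered up, from -0.10 to 0.07. Higher genes whose groups did not overlap numbered 9 of all genes considered with column totals and 37 with TMM-adjusted totals. That the 4 remained apart is therefore not read as support for them.

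ENSOARG00000012330 had 7.41, 16.8 and 13.8 CPM in pre-MI replicates 2, 3 and 4. At 4 weeks it had 24.8 and 21.0 CPM in replicates 1 and 5 without IMR, and 87.0, 40.6 and 41.0 CPM in replicates 2, 3 and 4 with IMR. At 8 weeks it had 32.6 and 27.7 CPM in replicates 3 and 4 without IMR, and 31.5 and 40.3 CPM in replicates 1 and 2 with IMR. The groups did not overlap, the lowest post-MI value being 1.247 times the highest pre-MI value, and 4-week replicate 2 with IMR stood above the other libraries. The means were 12.7 ± 4.80 CPM pre-MI (SD, n = 3), 42.9 ± 26.3 CPM at 4 weeks (SD, n = 5) and 33.0 ± 5.26 CPM at 8 weeks (SD, n = 4). The post-MI mean was 3.04 times the pre-MI mean. Counts behind these values ran from 109 to 1049.

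ENSOARG00000004361 had 1.50, 3.10 and 1.87 CPM in pre-MI replicates 2, 3 and 4. At 4 weeks it had 5.88 and 13.3 CPM in replicates 1 and 5 without IMR, and 3.40, 3.35 and 6.70 CPM in replicates 2, 3 and 4 with IMR. At 8 weeks it had 5.27 and 4.63 CPM in replicates 3 and 4 without IMR, and 3.55 and 7.93 CPM in replicates 1 and 2 with IMR. The post-MI libraries lay above the pre-MI libraries by a narrow margin, the lowest of them being 1.08 times pre-MI replicate 3. At 4 weeks the order of the IMR groups was the reverse of that of ENSOARG00000012330, the 3 libraries with IMR including the 2 lowest post-MI values. The means were 2.15 ± 0.836 CPM pre-MI (SD, n = 3), 6.52 ± 4.05 CPM at 4 weeks (SD, n = 5) and 5.34 ± 1.86 CPM at 8 weeks (SD, n = 4). Its counts were 22 to 152 per library.

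The other 2 higher genes, chosen after their values were seen, had smaller margins with column totals, as the ranking for naming sets. With TMM-adjusted totals their lowest post-MI value was 1.37 and 1.16 times the highest pre-MI value, in the order below. For ENSOARG00000012330 and ENSOARG00000004361 it was 1.24 and 1.32 times under that scaling. One had 1.16 to 2.04 CPM in the pre-MI libraries (mean 1.65 ± 0.448, SD, n = 3), 5.19 ± 1.12 CPM at 4 weeks (SD, n = 5) and 3.87 ± 1.43 CPM at 8 weeks (SD, n = 4). Its lowest post-MI value was in 8-week replicate 4 without IMR, at 1.06 times the highest pre-MI value. The other had 6.10 ± 2.52 CPM pre-MI (SD, n = 3), 14.1 ± 8.05 CPM at 4 weeks (SD, n = 5) and 20.7 ± 2.59 CPM at 8 weeks (SD, n = 4). This gene was the one of the 4 with the higher mean at 8 weeks, 1.46 times the 4-week mean. Its 4-week replicate 3 with IMR and pre-MI replicate 3 both had 8.95 CPM to 3 digits, a ratio of 1.0002, so its place among the 84 rested on a difference far within counting error (115 and 159 counts).

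**Figure D1:**
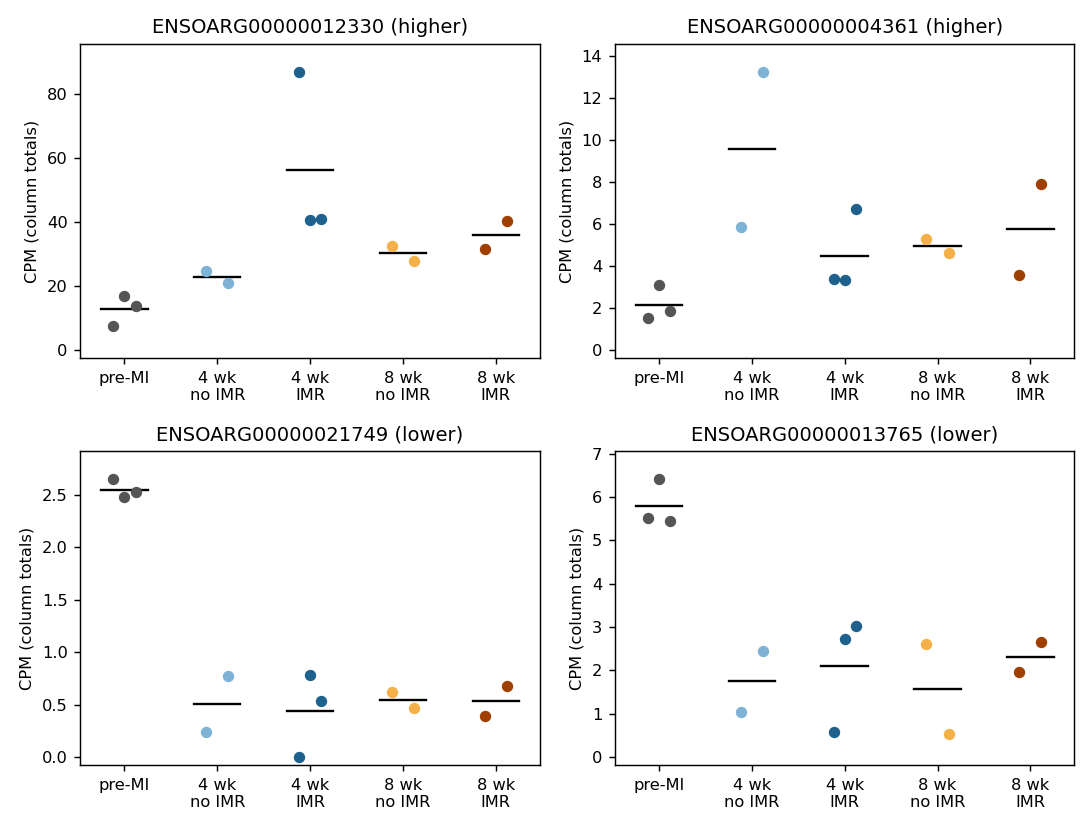
CPM (column totals, linear axis) of the 4 genes named by ID in each library, with 1 point per animal and a bar at the mean of each group. ENSOARG00000012330 and ENSOARG00000004361 were higher in all 9 post-MI libraries, ENSOARG00000021749 and ENSOARG00000013765 lower, and 4-week replicate 2 with IMR reached 87.0 CPM of the first.

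The 80 lower genes had a median post-MI over pre-MI fold of 0.639, with a range of 0.195 to 0.822. Post-MI means were below 0.5 times the pre-MI mean for 12 of them, between 0.5 and 0.75 times for 56, and at 0.75 times or more for 12. They made up 0.588% of the genes considered, whose own median fold was 0.931. On the log2 scale the median of the lower genes was -0.65 beside -0.10 for all genes considered with column totals, and -0.46 beside 0.07 with TMM-adjusted totals. Together they took 4898 ± 114 CPM in the pre-MI libraries (SD, n = 3), 3082 ± 321 CPM at 4 weeks (SD, n = 5) and 3189 ± 188 CPM at 8 weeks (SD, n = 4). The sum is dominated by the genes with the most reads. The counts behind single genes varied widely: 70 of the 80 had at least 20 counts in every library, and 1 had a library with 0.

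ENSOARG00000021749 had the widest gap of the 84 genes. Its CPM were 2.65, 2.48 and 2.52 in pre-MI replicates 2, 3 and 4. At 4 weeks they were 0.242 and 0.772 in replicates 1 and 5 without IMR, and 0, 0.778 and 0.533 in replicates 2, 3 and 4 with IMR. At 8 weeks they were 0.623 and 0.463 in replicates 3 and 4 without IMR, and 0.395 and 0.678 in replicates 1 and 2 with IMR. The lowest pre-MI value was 3.18 times the highest post-MI value. The post-MI libraries ran from 0 to 0.778 CPM at 4 weeks and from 0.395 to 0.678 CPM at 8 weeks. The post-MI mean of 0.498 ± 0.257 CPM (SD, n = 9) was 0.195 times the pre-MI mean of 2.55 ± 0.0905 CPM (SD, n = 3). The counts were few, 31 to 44 pre-MI and 0 to 13 post-MI, and the count of 0 in 4-week replicate 2 with IMR allows up to 0.249 CPM at 3 counts. Such limits cover counting error only.

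ENSOARG00000013765 had 5.51, 6.42 and 5.46 CPM in pre-MI replicates 2, 3 and 4. At 4 weeks it had 1.05 and 2.45 CPM in replicates 1 and 5 without IMR, and 0.581, 2.72 and 3.02 CPM in replicates 2, 3 and 4 with IMR. At 8 weeks it had 2.61 and 0.541 CPM in replicates 3 and 4 without IMR, and 1.97 and 2.66 CPM in replicates 1 and 2 with IMR. The pre-MI libraries lay close together, while post-MI libraries of the same group differed by up to several-fold. The means were 5.79 ± 0.540 CPM pre-MI (SD, n = 3), 1.96 ± 1.08 CPM at 4 weeks (SD, n = 5) and 1.94 ± 0.987 CPM at 8 weeks (SD, n = 4), a post-MI fold of 0.338. Counts were 67 to 114 pre-MI and 7 to 51 post-MI.

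Most of the lower genes were separated by little. The ratio of the lowest pre-MI to the highest post-MI CPM had a median of 1.05, was under 1.1 for 59 of the 80 genes and reached 1.2 or more in 10. The smallest ratio inside the rule was 1.0004, and the largest outside it was 0.9991. Another 82 genes that met the other conditions lay just outside, with ratios between 0.95 and 1. For the higher genes 7 lay just outside in that range. The bound on the week means removed 5 higher and 6 lower genes whose groups did not overlap. The largest fold between week means was 1.46 among both the higher and the lower genes kept, and the smallest among those removed was 1.70 for higher and 1.56 for lower genes. All 5 higher genes removed had the higher mean at 4 weeks. The mean CPM of the genes kept began at 1.01, and 5 genes in each direction met every other condition with a mean CPM under 1.

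The library that came closest to the other group was not the same for all genes. Among the 80 lower genes, the highest post-MI value was in 4-week replicate 5 without IMR for 19, in 4-week replicate 4 with IMR for 13, in 8-week replicate 2 with IMR for 13, and in each of the remaining 6 libraries for 2 to 9. The lowest post-MI value was in 4-week replicate 1 without IMR for 27 and in 4-week replicate 2 with IMR for 18. The lowest pre-MI value was in replicate 2 for 38 genes, in replicate 3 for 24 and in replicate 4 for 18.

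The lower genes tended to stand low in libraries where all genes considered stood low, which was not tested. Their median ratio to the mean pre-MI CPM was 0.520 in 4-week replicate 1 without IMR and 0.535 in 4-week replicate 2 with IMR, the 2 lowest values, and 0.748 in 8-week replicate 2 with IMR, the highest. In the same 3 libraries the median ratio of all 13605 genes considered was 0.635, 0.778 and 0.958. The order was not the same throughout. The median of all genes was highest in 4-week replicate 4 with IMR (1.02), where that of the lower genes was 0.717. In 4-week replicate 5 without IMR these were 0.996 and 0.743. The median of the lower genes was below that of all genes in each of the 9 post-MI libraries, as the choice of genes favours. With totals taken without the 37 lowest-numbered IDs the rule kept 7 higher and 88 lower genes, 3 and 68 of them shared with the 4 and 80. With totals taken without the gene with the most counts it kept 4 and 69, sharing 4 and 66.

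**Figure D2:**
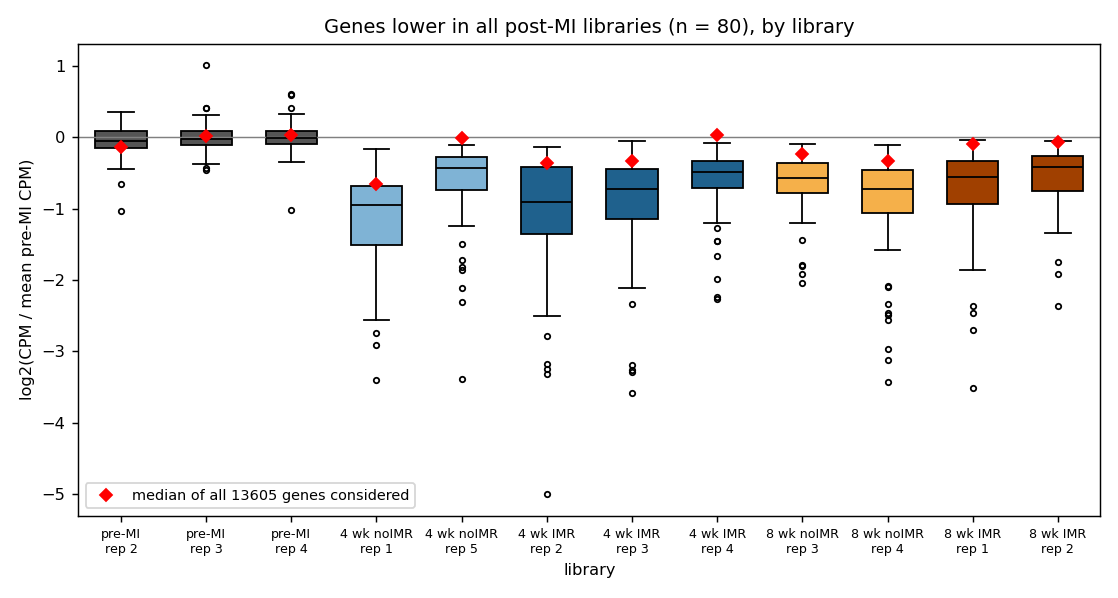
Log2 ratio of CPM to the gene's mean pre-MI CPM in each of the 12 libraries (boxes show quartiles and median over the 80 lower genes, whiskers 1.5 times the box height, circles single genes), with red diamonds at the median of all 13605 genes considered. The gene with 0 counts in 4-week replicate 2 with IMR is drawn at the lower edge of the boxes' axis, and the diamonds of 4-week replicate 1 without IMR, 4-week replicates 2 and 3 with IMR and 8-week replicate 4 without IMR are also well below 0.

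With TMM-adjusted totals all 80 lower genes still had a mean fold below 1, with a median of 0.727 and a range of 0.215 to 0.932, and 15 of the 80 still had groups that did not overlap. Those 15 genes included both named ones and had folds of 0.195 to 0.712 with column totals, with a median of 0.558. Of the 15, 13 met the whole rule under this scaling. ENSOARG00000021749 did not, because its mean over the 12 libraries was 0.959 CPM with TMM-adjusted totals, under the bound of 1, and 1 other gene did not because its week means differed by 1.53-fold. The other 65 had folds of 0.361 to 0.822 and a median of 0.671. The post-MI library that reached into the pre-MI range most often under this scaling was 4-week replicate 1 without IMR, for 36 of the 80 genes, while 4-week replicate 5 without IMR and 4-week replicate 4 with IMR did so for 0. Pre-MI replicates 3, 4 and 2 lay inside the post-MI range for 50, 46 and 20 of the 80 genes. Among all genes considered, 9 higher and 86 lower had groups that did not overlap with column totals, and 37 higher and 25 lower with TMM-adjusted totals.

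**Figure D3:**
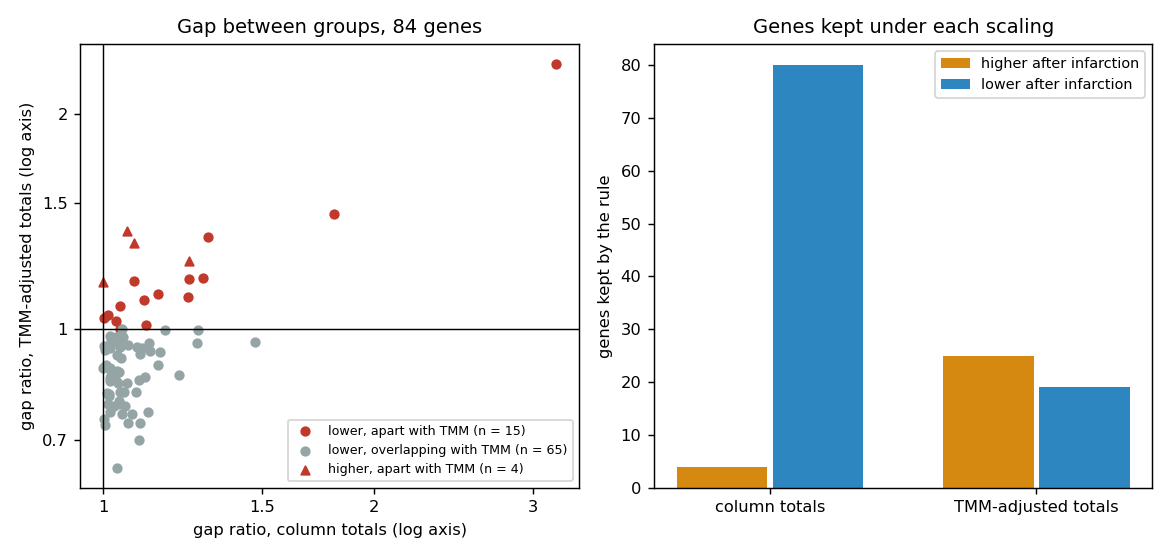
Left, gap ratio of each of the 84 genes (lowest value of the higher set of libraries over the highest of the lower set, both axes log) with column totals and with TMM-adjusted totals; a ratio above 1 means the groups did not overlap. Right, the number of genes the rule kept under each scaling, 4 higher and 80 lower against 25 higher and 19 lower.

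The counts kept also depended on single libraries. Leaving out 1 pre-MI library raised the higher genes to 33 (replicate 2), 44 (replicate 3) and 60 (replicate 4) and the lower genes to 464, 208 and 169. Among post-MI libraries, leaving out 4-week replicate 5 without IMR gave 10 higher and 159 lower genes, and leaving out 8-week replicate 3 without IMR gave 17 and 127. Without 8-week replicate 4 without IMR the rule kept 14 higher genes. A rule that asks every library to be on one side is easier to meet with fewer libraries. Why the counts differed by the library left out was not tested. Between 70 and 80 of the 80 lower genes and 3 or 4 of the higher genes remained in each of these 12 sets. Groups that do not overlap stay apart when a library is left out. A gene could therefore be lost only by the bounds on the mean CPM and the week means. That most genes remained is thus not read as support for them.

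The rule was also applied to every relabelling of the 12 columns into 3, 5 and 4, 27720 in all, which include the labels as given. The number of higher genes kept had a median of 20, with quartiles of 6 and 45 and a range of 0 to 2277, beside 4 under the labels as given. The number of lower genes had a median of 27, with quartiles of 12 and 63 and a range of 0 to 867, beside 80. Both directions together had a median of 58, with quartiles of 31 and 115, beside 84. These numbers are a description of the rule in these 12 libraries, and no p-value was formed from them.

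**Figure D4:**
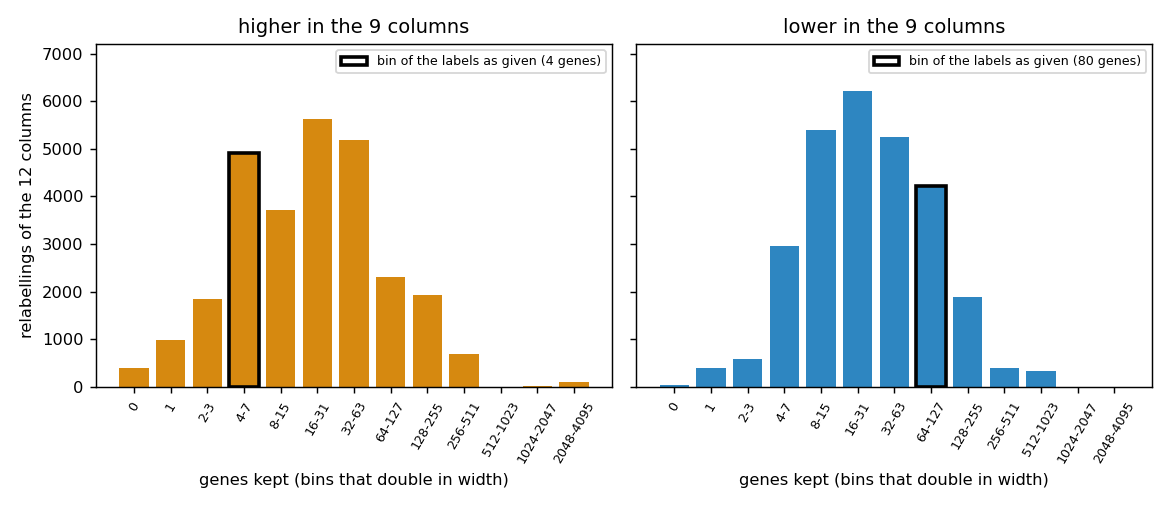
Number of relabellings of the 12 columns (vertical axis) by the number of genes the rule kept (horizontal axis, bins that double in width), for genes higher (left) and lower (right) in the 9 columns that stand for post-MI libraries. The outlined bin holds the labels as given, with 4 higher and 80 lower genes, while the medians over relabellings were 20 and 27.

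In a model of all genes, the mean of the 4 post-MI groups was set against pre-MI with edgeR's quasi-likelihood test. After adjustment at 0.05 it passed 0 of 14804 genes tested (0%), and the smallest adjusted p was 0.99989. Without adjustment 386 of these 14804 genes had a p under 0.05 in edgeR's test. When 1 library was dropped, the lowest count was 303 (without 4-week replicate 3 with IMR). The highest was 613 (without 4-week replicate 4 with IMR). DESeq2 passed 0 genes, with 583 at that level. Since the rule used this contrast, nothing is read from it for the 84 genes. All 84 had passed the filter on low counts.

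The spread among animals is described here and was not tested between the groups. The coefficient of variation of CPM, the SD divided by the mean, had a median of 10.2% over the pre-MI libraries and 24.1% over the post-MI libraries for the lower genes, and was larger post-MI for 68 of the 80. Over all genes considered the medians were 26.3% and 41.6%, and the coefficient was larger post-MI for 10380 of 13605. The rule asks every pre-MI value of a lower gene to lie above every post-MI value, which can favour a small pre-MI spread. The post-MI libraries also pool both times and animals with and without IMR. The difference in spread is therefore not read as particular to the lower genes. For the 4 higher genes the medians were 38.4% and 45.5%.

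Between the 2 times after infarction the lower genes stayed near each other, as the bound on the week means requires. With column totals the 8-week mean was the higher of the 2 for 61 of the 80, with a median ratio of 8 weeks to 4 weeks of 1.06. It was higher for 7630 of all 13605 genes considered, with a median ratio of 1.04. With TMM-adjusted totals the ratio fell from above 1 to below 1 for many of the 80, for example from 1.13 to 0.978. The count of 61 therefore depends on the scaling and is not read as a rise by 8 weeks. The median ratio of the lower genes to their pre-MI mean at 4 weeks was 0.626 in animals without and 0.620 in animals with IMR. At 8 weeks it was 0.637 and 0.701 in the same order. For the 4 higher genes these medians were 2.23 and 3.09 at 4 weeks and 2.37 and 2.75 at 8 weeks. For all genes considered, the median ratio in each library averaged 0.8151 without and 0.8641 with IMR at 4 weeks. At 8 weeks it averaged 0.8244 and 0.9499 in the same order. The higher value of the lower genes with IMR at 8 weeks is therefore not read as particular to them.

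The rule did not use the labels of regurgitation, and the animals with IMR were tested against those without at the same time. The test is not free of the rule, which can leave out genes that vary widely among post-MI animals, including by IMR. Over both times the median absolute log2 fold change for IMR was 0.1534 for the lower genes and 0.3196 for all genes tested. A smaller share under 0.05 among the 84 than among all genes is therefore not read as a lack of effect, here or at either time. Over both times (5 against 4 animals), edgeR's quasi-likelihood test with adjustment over all genes passed 0 of the 84, and 0% of all 14804 genes. DESeq2 also passed 0 of all genes, with 988 at an unadjusted p under 0.05. Before adjustment, 2 of the 80 lower genes and 0 of the 4 higher genes had a p under 0.05, beside 5.17% of all genes tested (766 genes). Both numbers depended on single libraries. Omitting 4-week replicate 4 with IMR raised the count over all genes to 2145, and omitting the 4-week library 1 from an animal lacking IMR raised it to 1218. Omitting 4-week replicate 3 or 2 with IMR lowered it to 459 or 444, and 384 genes were left when the 8-week library 1 with IMR was dropped. Of the 80 lower genes, 5 were under 0.05 after omitting 4-week replicate 4 with IMR, and 0 when the 8-week library 3 from an animal lacking IMR was dropped. Dropping any other single library left 1 or 2. Both lower genes at that level had the lower value with IMR. The log2 fold changes of the 80 lower genes for IMR had a median of -0.07 and ran from -0.66 to 1.08, with 34 above and 46 below 0. The median over all genes was -0.02.

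At 4 weeks (3 against 2 animals), 0 of the 84 genes and 0% of all genes passed in edgeR's test. Unadjusted, 4 of the 80 lower genes (1 higher and 3 lower with IMR) and 2 of the 4 higher genes were under 0.05, beside 7.42% of all genes (1099). Among the 5 libraries of this time, dropping replicate 4 with IMR gave 3117 such genes and dropping replicate 1 lacking IMR gave 1840. Dropping replicate 5 lacking IMR gave 630, and dropping replicates 3 and 2 with IMR gave 485 and 413. The lower genes under 0.05 numbered 8 once replicate 4 with IMR was dropped, 0 once replicate 1 lacking IMR or replicate 3 with IMR was dropped, and 2 to 5 for any other single library of either time or before infarction. DESeq2 passed 11 genes in this contrast, with 0 of the 84 among them. The 2 higher genes were the named ones and went opposite ways. ENSOARG00000012330 differed by 1.18 on the log2 scale (SE 0.48, adjusted p = 0.637 in edgeR). With column totals it was higher in 3 of 3 libraries with IMR than in either without. With TMM-adjusted totals, which the test used, replicate 4 with IMR (34.7) and replicate 1 without (34.6) nearly met. ENSOARG00000004361 differed by -1.14 (SE 0.46, adjusted p = 0.637 in edgeR). Its groups overlapped with column totals. With TMM-adjusted totals they did not, the nearest being replicate 4 with IMR (5.67) and replicate 1 without (8.20). The share of all genes with such separation at 4 weeks was not counted.

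At 8 weeks (2 against 2 animals), 0 of the 84 genes and 0% of all genes passed in edgeR's test, and DESeq2 passed 0. Unadjusted, 1 of the 80 lower genes and 0 of the 4 higher genes were under 0.05, beside 2.39% of all genes (354). Among the 4 libraries of this time, dropping replicate 3 lacking IMR gave 601 such genes, dropping replicate 2 with IMR gave 597 and dropping replicate 1 with IMR gave 187, and the lower genes numbered 0 or 1 when any single library was left out. ENSOARG00000012330 had a log2 fold change of 0.10 at 8 weeks (SE 0.51) and ENSOARG00000004361 one of 0.04 (SE 0.51), each with an edgeR adjusted p of 1.00. The difference between the effects at the 2 times was tested as an interaction, which passed 0% of all genes in edgeR and 0 in DESeq2. For ENSOARG00000012330 the effect at 8 weeks minus that at 4 weeks was -1.09 (SE 0.70), and for ENSOARG00000004361 it was 1.18 (SE 0.69), both with an edgeR adjusted p of 0.955. Unadjusted, 2 of the 80 lower genes and 0 of the 4 higher genes were under 0.05 in the interaction, beside 3.35% of all genes (496). Among the 4-week libraries, dropping replicate 4 with IMR gave 1623 such genes and dropping replicate 1 lacking IMR gave 922, while dropping replicates 3 and 2 with IMR gave 308 and 270. The lower genes under 0.05 in the interaction numbered 4 once that replicate 4 was dropped, and 1 to 3 for any other single library. For ENSOARG00000013765 the difference by IMR over both times was 0.33 (SE 0.55, adjusted p = 0.916 in edgeR). ENSOARG00000021749 had 0 to 13 counts in the post-MI libraries and did not pass the filter on low counts in a fit of those 9 libraries alone, so its difference by IMR is not read.

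**Figure D5:**
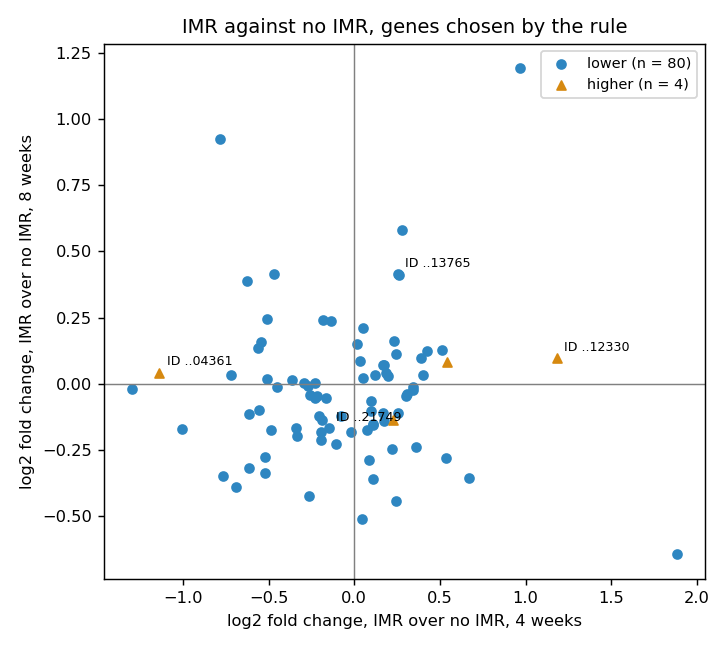
Log2 fold change of IMR over no IMR at 4 weeks (horizontal axis) and at 8 weeks (vertical axis) from edgeR, 1 point per gene for the 80 lower and 4 higher genes, with the last digits of the 4 named IDs beside their points. The point of ENSOARG00000021749 is drawn but not read, as its post-MI counts were few. At 4 weeks ENSOARG00000012330 lay at 1.18 and ENSOARG00000004361 at -1.14, while both lay near 0 at 8 weeks.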

How the data were processed

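The authors deposited a table of raw read counts from poly-A RNA libraries, in which each row is an Ensembl sheep gene and each column an animal. Per the submitters' processing notes, Bowtie2 2.2.3, TopHat2 2.0.12 and HTSeq 0.6.1 were used; their roles, the genome build, strandedness and the handling of shared reads are not given in the sources used here, so counts of similar, overlapping or antisense genes are uncertain. The members and lists were chosen with earlier results of these data known. The labels name 1 animal per sample, and no pair of libraries agreed within sampling noise (smallest chi-square per degree of freedom 47.5).

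CPM used column totals. Counts were fitted in edgeR 4.0.16 (R 4.3.3) with TMM factors, filterByExpr on 5 groups of time by regurgitation (14804 genes tested, 99.95% of counts), robust quasi-likelihood dispersion and 7 residual degrees of freedom. P-values were adjusted over all genes by Benjamini-Hochberg at 0.05, and the fit was tested on simulated data. The SE is the log2 fold change divided by the root of F. Named genes were those with the widest gap ratio and at least 20 counts in every library of the higher set, 2 per direction, since 0 IDs could be paired with symbols. Alternatives were DESeq2 1.42.0, limma 3.58.1 voom, other scalings, filters and bounds, the animal number as a block, and leaving out each library. Figures used matplotlib 3.10.9.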

Additional observations from a re-analysis of the deposited data

Results flagged for a closer look

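Among 16 comparisons of a named gene or a summed or median level within the 4-week or the 8-week libraries, 1 stood apart by Dixon's criterion, where chance gives 0.8. The summed CPM of the 4 higher genes was 124 in 4-week replicate 2 with IMR, against 46.6 to 65.0 in the other 4-week libraries, a gap of 0.762 of the group's range where the critical value for 5 libraries is 0.71. In that library ENSOARG00000012330 had 87.0 CPM and 1049 counts.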

How the results depend on the processing

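With TMM-adjusted totals the rule kept 25 higher and 19 lower genes in place of 4 and 80. Totals without the 37 lowest-numbered IDs gave 7 higher genes (3 shared with the 4), and a narrower and a wider (2-fold) bound on the week means gave 1 and 7. The other settings of the rule stayed within 1.5 times of both counts. Leaving out 1 library gave 4 to 60 higher and 90 to 464 lower genes. Being on one side is easier to meet with fewer libraries, and why the counts differed by the library left out was not tested. For IMR at 4 weeks DESeq2 passed 11 genes, and leaving out 1 library gave 0 to 4 (4 without 4-week replicate 5 without IMR). The cause of the differences by tool and scaling was not tested. In the 5 contrasts every other alternative passed 0 genes, and 0 of the 84 genes passed under any alternative run.

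The log2 fold change for IMR over both times ran from -0.57 to 0.13 for ENSOARG00000021749 and from -0.02 to 1.07 for ENSOARG00000013765 when 1 library was left out, so each changed sign. The first did not pass the low-count filter in the fit of the 9 post-MI libraries. Its values are given only for the change of sign, and its difference by IMR is not read. The sign changed without 4-week replicate 5 without IMR (0.13) or 4-week replicate 2 with IMR (0.13) for the first, and without 8-week replicate 4 without IMR (-0.018) for the second. With the animal number as a replicate block, 0 genes passed in each contrast, and 621 genes were at an unadjusted p under 0.05 for IMR over both times, 450 at 4 weeks and 304 for the interaction. That fit left 3 residual degrees of freedom, beside 7 in the main fit, so little is read from its passing 0 genes. The deviations from the group mean of libraries with the same number had a mean correlation of -0.0613 in 10 pairs. The range was -0.499 to 0.472, and 3 pairs exceeded 0.1. In groups of 2 or 3 libraries such deviations are tied to each other. These correlations therefore cannot tell whether samples share more than a number. Counts under 20 limit the genes with few reads.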
